A study of Homo sapiens with 40 samples.

Results

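BT474 cells treated for 1 h with EGF (EGF-BT474) were compared with BT474 cells given vehicle for 1 h, 2 libraries against 2 of the 40 RNA libraries of the series, chosen by their labels for line, ligand and time and by no measured value. All genes entered the comparison: of the 44584 names in the count table, 25146 were tested, those with a count of 1 or higher in no fewer than 50% of the 20 BT474 libraries. BT474 is a breast ductal carcinoma line with amplified ERBB2 (HER2) that is sensitive to trastuzumab, and BT474R, used here only for comparison, is a resistant derivative that is 1 clone grown out under trastuzumab. Cells of both lines were plated in complete medium, starved for 14 to 16 h in medium with 0.1% FBS and either harvested (T0) or moved to fresh starvation medium with 50 ng/mL EGF, 10 ng/mL heregulin (HRG) or water as vehicle, for 1 h, 12 h or 24 h. The vehicle cells of 1 h therefore had a change of medium but no ligand, and every group had 2 libraries.

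EGF binds EGFR, which pairs with the orphan receptor HER2, and the pair signals through RAS, RAF, MEK and ERK. ERK phosphorylates ternary complex factors of the ETS family that sit with serum response factor (SRF) at the promoters of immediate-early genes, which are transcribed within minutes and need no new protein. Many of these genes encode transcription factors such as FOS and EGR1, and a following set encodes phosphatases, receptor inhibitors and RNA-decay proteins that end the signal.

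The 2 vehicle libraries held 20429516 and 22576514 counts and the 2 EGF libraries held 28192208 and 27777760, so both EGF libraries were deeper, and 3 counts, the detection limit used here, corresponded to between 0.106 and 0.147 CPM, the count scaled to a common library size. TMM factors, which correct for composition, were between 0.982 and 1.02, and levels are given below as TMM-normalised CPM in replicates 1 and 2. The 11 luminal epithelial markers summed to between 14900 and 15300 CPM in the 4 libraries, with ERBB2 the highest at 8180 CPM on average. Basal markers summed to between 6.11 and 8.51 CPM, and leukocyte markers to between 1.24 and 2.16 CPM, with CD3E at 0. Endothelial markers summed to between 24.7 and 25.9 CPM, nearly all from VWF, and fibroblast markers to between 80.8 and 99.6 CPM, nearly all from COL1A1, with COL1A2 and PDGFRB at 0. The methods describe treatments in duplicate on cells plated in wells and do not say whether the duplicates were grown on separate occasions. The p-values therefore measure only the spread between duplicate libraries. For EGF against vehicle that spread was pooled over all BT474 groups in the fit, not taken from these 4 libraries alone. In bulk RNA, a change in the number of cells carrying a transcript and a change in RNA per cell cannot be told apart.

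EGF for 1 h raised 416 genes and lowered 134 of the 25146 tested (1.65% and 0.533%, together 2.19%; edgeR's quasi-likelihood test, Benjamini-Hochberg adjusted p under 0.05). Of the 416 genes that rose, 73 had a log2 fold change over 1, 25 over 2 and 13 over 3, with a median of 0.41, whereas the median log2 fold change over all genes tested was 0.0013. Of the 134 that fell, 38 had a log2 fold change below -1, 7 below -2 and 3 below -3, and the median was -0.63. Both EGF libraries lay above both vehicle libraries for each of the 416, which held for 22.0% of all genes tested, and below them for each of the 134, which held for 20.7%. The counts depended on single libraries: 348 genes (291 higher, 57 lower) were called without vehicle replicate 1, 342 (289 higher, 53 lower) without vehicle replicate 2, and 372 (342 higher, 30 lower) without EGF replicate 1. A fit of the 4 libraries alone called 240 (218 higher, 22 lower), and T0 in place of vehicle gave 2482. Numbered copies of a gene name made up 29 of the 416 and 7 of the 134, so these counts are of entries in the count table. With copies summed, 601 were called (488 higher, 113 lower), of which 496 were shared.

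Of 310 genes in 20 classes of growth factor response genes, 297 were tested, with a median log2 fold change of 0.12. Among these, 99 rose and 8 fell, against 1.65% and 0.533% of all genes tested. The lists were chosen with earlier results of these data known, so the class counts describe and do not test. Because only 0.533% of all genes fell, 0 falls in a class of at most 28 tested genes are not a result about that class. The classes differed widely. The EGR factors, AP-1 factors and NR4A receptors had median log2 fold changes of 3.64, 1.77 and 1.46. The ERBB receptors, the ETS factors, the NF-kB genes and the steroid receptor class had medians between -0.01 and 0.06, and ERF, ELF3, NFKBIZ and TFAP2C were the members that rose.

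**Figure D1:**
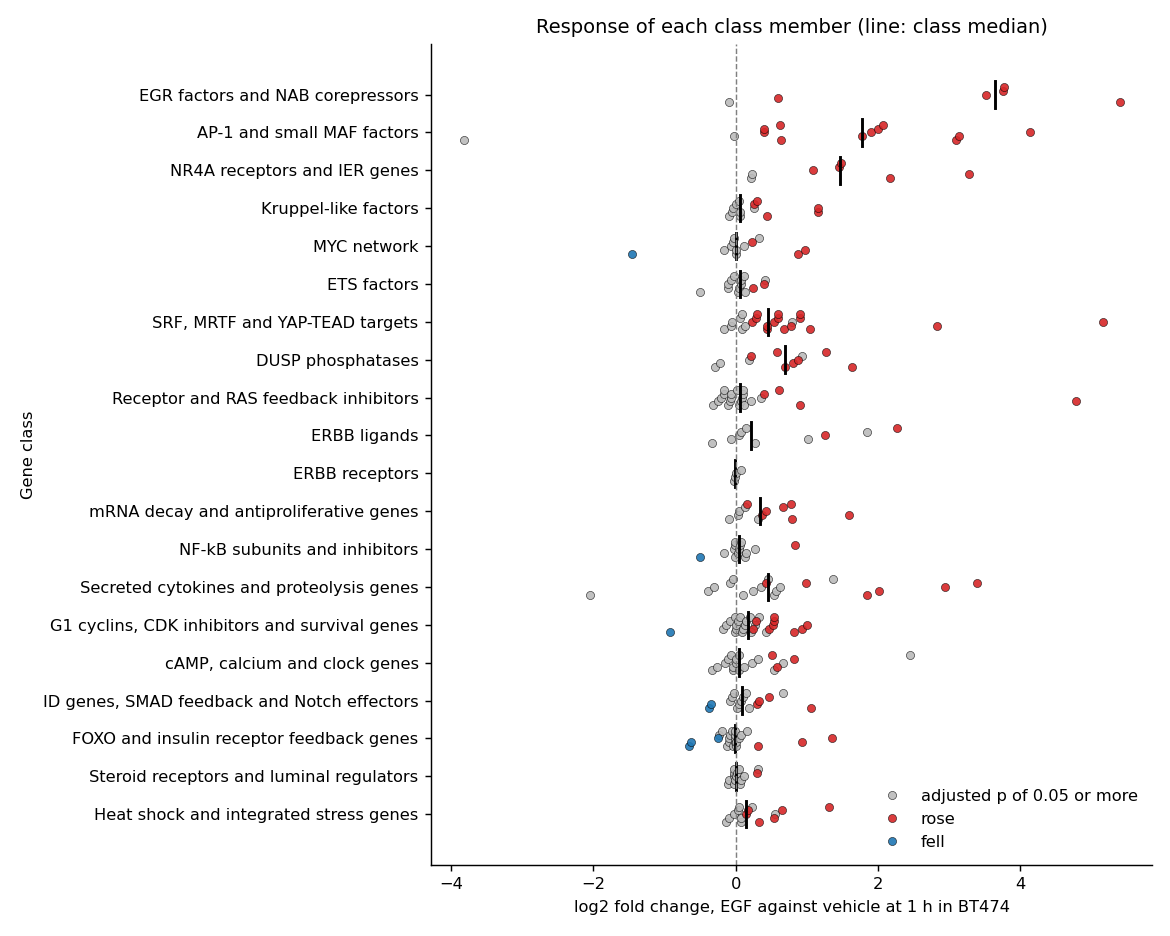
Each point is 1 tested member of a gene class (class names on the vertical axis) at its log2 fold change between EGF and vehicle at 1 h in BT474 (horizontal axis); red points rose and blue points fell at an adjusted p under 0.05, grey points did not pass, and the black line is the class median. The EGR, AP-1 and NR4A classes lie to the right with medians of 3.64, 1.77 and 1.46, the ERBB receptors lie at 0, and the grey point farthest left is BATF2, a gene near the detection limit.

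The EGR factors are zinc finger transcription factors of the immediate-early set, and all 4 rose. EGR1 was at 82.3 and 85.1 CPM in the vehicle libraries and at 1114 and 1145 CPM in the EGF libraries, a 13.5-fold rise (log2 fold change 3.75 ± 0.06 SE, adjusted p = 1.16e-34, edgeR's quasi-likelihood test). EGR2 went from 3.22 and 2.67 CPM to 117 and 131 CPM, 42.2-fold and the largest fold of any gene that met the rule for named genes (log2 fold change 5.40 ± 0.11). EGR3 was at 26.1 and 20.8 CPM with vehicle and at 246 and 292 CPM with EGF (log2 fold change 3.52 ± 0.08). EGR4 was at 2.41 and 1.75 CPM with vehicle and at 26.8 and 29.8 CPM with EGF (log2 fold change 3.77 ± 0.16). For each of the 4 genes the libraries of the groups did not overlap. NAB2, a corepressor that EGR proteins induce and that binds them back, went from 25.0 and 21.0 to 33.9 and 35.2 CPM (log2 fold change 0.59 ± 0.09), and its relative NAB1, at 7.41 and 6.78 CPM with vehicle and 7.23 and 6.07 CPM with EGF, did not pass the test.

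Of 13 tested AP-1 and small MAF factors, 11 rose. AP-1 is a dimer of a FOS and a JUN protein. FOS was at 5.24 and 6.12 CPM with vehicle and at 99.11 and 100.8 CPM with EGF, a 17.5-fold rise (log2 fold change 4.13 ± 0.09, adjusted p = 8.51e-30, edgeR). FOSB went from 46.1 and 31.9 to 322 and 364 CPM (log2 fold change 3.14 ± 0.08), the partner ATF3 from 12.7 and 8.92 to 88.2 and 95.8 CPM (3.10 ± 0.09) and FOSL1 from 2.65 and 3.02 to 9.65 and 11.6 CPM (1.90 ± 0.17). Among the JUN genes the rise was graded: JUN rose 4.01-fold, from 133 and 110 to 476 and 497 CPM, JUNB 3.42-fold and JUND 1.55-fold. The small MAF genes, whose proteins dimerise with CNC and AP-1 factors, were graded as well, with MAFF up 4.21-fold, from 9.57 and 7.70 to 35.4 and 37.2 CPM, MAFK 1.55-fold and MAFG 1.32-fold. FOSL2, the FOS gene with the smallest rise, went up 1.31-fold. BATF was at 20.01 and 18.63 CPM with vehicle and 19.98 and 18.05 CPM with EGF, and BATF2, near the detection limit in all 4 libraries, did not pass.

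All 3 NR4A genes, orphan nuclear receptors that act without a ligand, rose. NR4A1 went from 74.4 and 57.0 CPM to 274 and 314 CPM (log2 fold change 2.16 ± 0.07), NR4A2 from 11.9 and 8.79 to 27.6 and 28.8 CPM (1.46 ± 0.11) and NR4A3 from 2.26 and 1.31 to 15.2 and 19.1 CPM (3.28 ± 0.20). Of the IER genes, IER2 rose 2.79-fold to 319 and 332 CPM and IER3 rose 2.13-fold to 6.47 and 6.61 CPM; IER3 has 5 further copy entries in the table, so its level is uncertain. IER5 and IER5L did not pass (log2 fold changes 0.21 and 0.23).

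**Figure D2:**
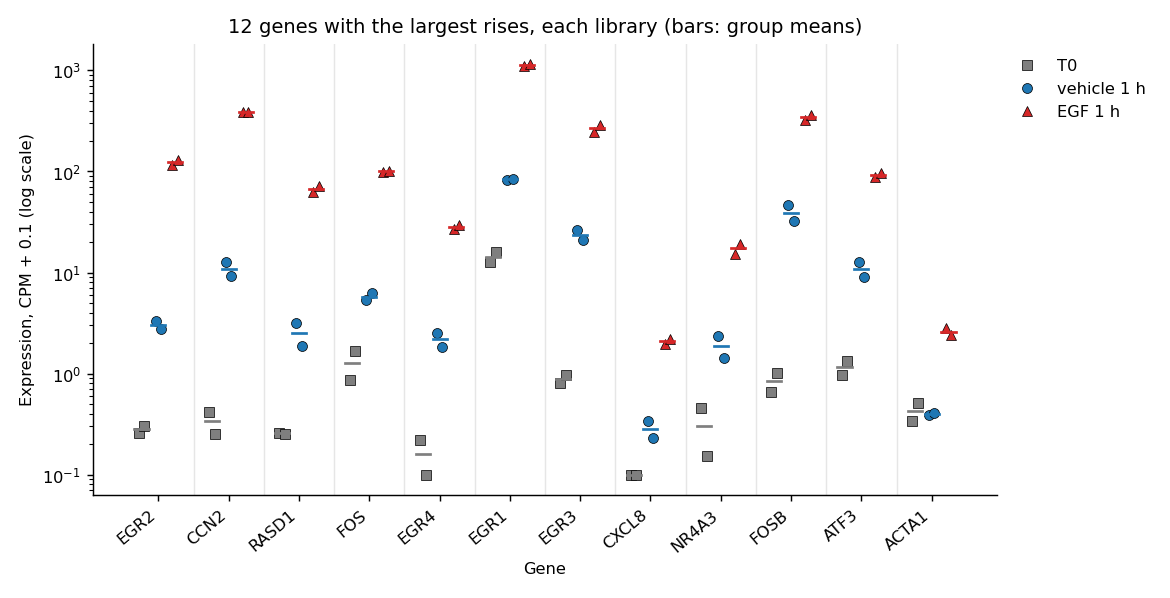
Expression in TMM-normalised CPM plus 0.1 (vertical log axis) of the 12 genes with the largest rises (horizontal axis), as 1 point per library for T0 (grey squares), vehicle 1 h (blue circles) and EGF 1 h (red triangles), with short bars at the group means. In all 12 genes both EGF points lie above both vehicle points, and in 11 of them, ACTA1 excepted, the vehicle points lie above the T0 points.

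The remaining transcription factor families answered through a few members. Of 13 Kruppel-like factors, KLF6 rose from 151 and 146 to 332 and 333 CPM and KLF2 from 42.8 and 42.3 to 93.7 and 95.8 CPM (log2 fold changes 1.16 ± 0.04 and 1.16 ± 0.06), and KLF7, KLF9 and KLF10 rose by 0.44, 0.30 and 0.26 on the log2 scale, with the call of KLF10 lost in 5 of 15 alternative settings. Without vehicle replicate 1, 3 members of this class passed in place of 5. In the MYC network, MYC rose 1.97-fold, from 53.5 and 56.2 to 107 and 109 CPM, and MYCN, its paralogue, fell from 4.47 and 3.76 to 1.66 and 1.32 CPM (log2 fold change -1.46 ± 0.23, adjusted p = 2.15e-05, edgeR). MXD1, whose protein competes with MYC for MAX, rose 1.83-fold, and MAX was at 68.1 and 68.6 CPM with vehicle and at 66.5 and 68.4 CPM with EGF. Of 14 ETS factors, ERF, an ERK-regulated repressor, rose 1.31-fold and ELF3, an epithelial factor, 1.18-fold. The ETS genes ETV4 and ETV5, known as ERK targets in many cells, did not pass, ETV4 at 7.51 and 8.09 CPM with vehicle and 6.79 and 7.71 CPM with EGF, and ETV5 at 8.85 and 8.92 CPM with vehicle and 9.25 and 9.54 CPM with EGF.

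SRF and its actin-regulated cofactors, the MRTF proteins, control cytoskeletal genes, and CCN1 and CCN2, matricellular proteins, are textbook targets of SRF and of YAP with TEAD. Of 23 tested genes of this class, 15 rose and 0 fell, with a median log2 fold change of 0.45. CCN2 went from 12.5 and 9.19 to 385 and 386 CPM, a 35.8-fold rise (log2 fold change 5.16 ± 0.07, adjusted p = 1.24e-36, edgeR), and CCN1 from 34.4 and 33.6 to 244 and 237 CPM (2.82 ± 0.06). SRF itself rose 1.87-fold, from 82.0 and 74.7 to 145 and 148 CPM, whereas its cofactor genes MRTFA and MRTFB did not pass (log2 fold changes -0.07 and -0.06). The cytoskeletal members rose less: ACTB 1.17-fold, ACTG1 1.22-fold, TPM1 1.24-fold, TPM4 1.36-fold and ZYX 1.51-fold. ACTA1, the skeletal muscle actin gene, is in no class and was at 0.289 and 0.306 CPM with vehicle and at 2.71 and 2.30 CPM with EGF (log2 fold change 3.05 ± 0.36). ANKRD1, another YAP target, stayed low at between 0.144 and 0.548 CPM and did not pass.

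The promoters of 7 genes that rose are shown to place these responses beside the elements through which growth factor signals are known to act. No rule for the choice of these 7 was set, so they do not stand for the other genes that rose. Each stretch is the 150 bases before a RefSeq transcription start (GRCh38.p14), read 5′ to 3′ on the strand of the gene, with capitals for matches to the CArG box, the element that SRF binds, to TGACGTCA, the cyclic AMP response element, and to TATAAA, searched on both strands. They lie at chr5:138465329-138465478 (EGR1, plus strand), chr10:62816367-62816516 (EGR2, minus), chr6:43171119-43171268 (SRF, plus), chr1:229434095-229434244 (ACTA1, minus), chr14:75278678-75278827 (FOS, plus), chr4:74444986-74445135 (AREG, plus) and chr5:172771196-172771345 (DUSP1, minus).
EGR1: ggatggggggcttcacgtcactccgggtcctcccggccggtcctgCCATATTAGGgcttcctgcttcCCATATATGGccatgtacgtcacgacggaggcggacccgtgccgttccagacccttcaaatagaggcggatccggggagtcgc
EGR2: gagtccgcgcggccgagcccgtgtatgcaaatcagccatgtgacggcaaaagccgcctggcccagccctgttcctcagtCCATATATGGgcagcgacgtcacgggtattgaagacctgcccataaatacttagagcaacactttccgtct
SRF: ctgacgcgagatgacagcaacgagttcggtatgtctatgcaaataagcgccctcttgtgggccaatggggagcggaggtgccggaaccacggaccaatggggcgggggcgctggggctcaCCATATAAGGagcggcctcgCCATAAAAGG
ACTA1: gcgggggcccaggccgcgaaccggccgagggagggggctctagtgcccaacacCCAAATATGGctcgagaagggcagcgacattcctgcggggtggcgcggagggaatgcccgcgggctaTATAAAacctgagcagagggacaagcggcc
FOS: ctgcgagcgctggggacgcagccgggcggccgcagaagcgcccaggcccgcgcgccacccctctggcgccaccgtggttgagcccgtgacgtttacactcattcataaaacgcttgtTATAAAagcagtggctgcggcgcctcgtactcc
AREG: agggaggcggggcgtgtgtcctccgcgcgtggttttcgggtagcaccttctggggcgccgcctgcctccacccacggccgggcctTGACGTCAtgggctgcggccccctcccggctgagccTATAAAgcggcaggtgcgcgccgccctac
DUSP1: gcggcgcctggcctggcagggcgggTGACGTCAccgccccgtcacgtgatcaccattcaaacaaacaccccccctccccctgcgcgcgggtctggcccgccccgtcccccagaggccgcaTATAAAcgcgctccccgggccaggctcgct
The EGR1 and SRF stretches each hold 2 CArG boxes and those of EGR2 and ACTA1 hold 1 each, while AREG and DUSP1 hold 1 TGACGTCA and 1 TATAAA each. The FOS stretch holds 1 TATAAA and no CArG box, and bases more than 250 before the start were not searched. The table has 3 windows for EGR2 and 2 for SRF, of which the windows shown are the ones with a CArG box, and the others hold none. Over the 35116 promoter windows of 300 bases in the RefSeq table, 1.29% hold a CArG box, 1.85% hold TGACGTCA and 11.5% hold TATAAA. Of the 73 genes that rose by a log2 fold change over 1, 44 (60.3%) have a window in the table, and among these 5 genes hold a CArG box, 6 hold TGACGTCA and 18 hold TATAAA. Since under 80% of the set has a window, a comparison of these shares with other genes is void. A match is a description of the letters and not evidence of binding.

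The DUSP genes encode phosphatases that remove phosphate from ERK, JNK and p38, and 7 of 11 rose. DUSP1, which acts in the nucleus, rose most, from 32.5 and 29.0 to 95.1 and 96.6 CPM (log2 fold change 1.64 ± 0.07), followed by DUSP5, specific for nuclear ERK, from 10.4 and 11.5 to 26.7 and 26.1 CPM (1.27 ± 0.10). DUSP8, DUSP10, DUSP6, DUSP4 and DUSP14 rose by 0.88, 0.80, 0.69, 0.58 and 0.22 on the log2 scale. DUSP4 had the highest level of the class, going from 803 and 814 to 1190 and 1221 CPM. DUSP2, at 1.30 and 0.831 CPM with vehicle and 2.02 and 2.01 CPM with EGF, did not pass (adjusted p = 0.0653, edgeR).

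Of 22 genes grouped as receptor and RAS feedback genes, 4 rose and 0 fell, against 1.65% and 0.533% of all genes tested. Their median log2 fold change was 0.07. RASD1, a small RAS-like protein, went from 3.08 and 1.79 to 62.3 and 71.0 CPM, a 27.6-fold rise and the third largest of the comparison (log2 fold change 4.79 ± 0.12). Whether RASD1 acts in such feedback was not tested. ERRFI1, which binds the kinase domain of EGFR and HER2, rose from 54.2 and 56.9 to 101.5 and 105.5 CPM (0.90 ± 0.05), and SPRY4, which restrains RAS activation, from 20.8 and 21.0 to 30.97 and 33.03 CPM (0.61 ± 0.09). CISH, a cytokine signal inhibitor, rose 1.32-fold. SPRY1, SPRY2, the 3 SPRED genes, the 3 LRIG genes, CBL and the SOCS genes did not pass.

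The genes of the receptor system itself split. None of the 4 ERBB receptor genes passed the test: EGFR was at 71.7 and 66.0 CPM with vehicle and at 65.4 and 72.1 CPM with EGF, and ERBB2 at 8259 and 8269 CPM with vehicle and 8155 and 8056 CPM with EGF (log2 fold changes -0.00 ± 0.07 and -0.03 ± 0.02). ERBB3, the HRG receptor that pairs with HER2, was at 264 and 269 CPM with vehicle and at 265 and 262 CPM with EGF (-0.02 ± 0.04). Of the ligands, AREG (amphiregulin) rose 4.82-fold, from 5.53 and 3.98 to 21.5 and 24.1 CPM (log2 fold change 2.27 ± 0.12, adjusted p = 4.44e-18, edgeR), and EPGN (epigen) from 1.15 and 1.01 to 2.602 and 2.558 CPM (1.26 ± 0.25). EPGN did not pass without vehicle replicate 2. EREG and HBEGF, at most at 0.614 and 1.64 CPM in any of the 4 libraries, had log2 fold changes of 1.85 ± 0.59 and 1.02 ± 0.33 and did not pass, and TGFA was at 10.15 and 10.02 CPM with vehicle and 12.0 and 12.46 CPM with EGF.

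Of 12 genes for RNA decay and antiproliferative proteins, 7 rose and 5 did not pass, with a median log2 fold change of 0.34. ZFP36 (tristetraprolin) and its relatives bind AU-rich elements, which are common in immediate-early mRNAs. ZFP36 went from 32.6 and 27.6 to 87.3 and 94.4 CPM, a 3.02-fold rise, ZFP36L1 from 754 and 717 to 1242 and 1294 CPM (0.79 ± 0.04) and ZFP36L2 from 141 and 149 to 243 and 255 CPM (0.78 ± 0.05). The ribonuclease gene ZC3H12A rose 1.59-fold, and the antiproliferative genes BTG2, BTG1 and TOB2 rose 1.34-, 1.29- and 1.12-fold, with the call of TOB2 lost in 5 of 15 alternative settings.

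Of 28 secreted cytokine and proteolysis genes, 9 (among them IL6, TNF, PTGS2 and CXCL1) were below the filter, 6 rose and 0 fell. EDN1, the vasoactive peptide endothelin, went from 8.66 and 7.87 to 58.6 and 67.8 CPM (2.94 ± 0.10). GDF15, a stress-induced TGF-beta family member, went from 14.4 and 14.6 to 57.8 and 59.1 CPM (2.01 ± 0.09) and ADM (adrenomedullin) from 4.67 and 4.07 to 14.8 and 16.5 CPM (1.84 ± 0.13). CXCL8, the chemokine IL-8, went from 0.241 and 0.131 CPM, 5 and 3 counts, to 1.84 and 2.12 CPM, 51 and 58 counts (3.40 ± 0.43). THBS1 rose 1.99-fold and VEGFA 1.34-fold.

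Among 28 cyclin, CDK inhibitor and survival genes, 9 rose and 1 fell. MCL1, a short-lived BCL2 relative, rose 1.91-fold, from 545 and 539 to 1016 and 1053 CPM, and the kinase gene PLK2 rose 2.01-fold, from 245 and 226 to 468 and 480 CPM. The CDK inhibitor genes CDKN1A, CDKN1B and CDKN2B rose 1.44-, 1.19- and 1.77-fold, while CCND1, the G1 cyclin, was at 618 and 622 CPM with vehicle and at 657 and 663 CPM with EGF and did not pass (log2 fold change 0.09 ± 0.04). GADD45G fell from 5.15 and 5.47 to 3.29 and 2.30 CPM (-0.92 ± 0.18).

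Besides MYCN and GADD45G, the class members that fell were in the FOXO, ID and NF-kB classes. In the FOXO and insulin feedback class, 3 of 23 fell and 3 rose. DDIT4 (REDD1), an inhibitor of mTORC1, fell from 45.3 and 47.2 to 30.1 and 28.7 CPM (-0.65 ± 0.07), the arrestin gene ARRDC3 from 37.0 and 40.5 to 24.6 and 25.4 CPM (-0.63 ± 0.07) and its relative TXNIP from 307 and 314 to 259 and 263 CPM (-0.25 ± 0.04). TRIB1, a pseudokinase, and IRS2, an insulin receptor substrate, rose 2.56-fold and 1.90-fold, and FOXO1, FOXO3 and PIK3IP1 did not pass. NFKBIA, the inhibitor of NF-kB, fell from 47.1 and 45.0 to 32.7 and 32.3 CPM (-0.50 ± 0.06), while NFKBIZ rose 1.78-fold and the other 12 tested members of that class did not pass. In the ID, SMAD and Notch class, ID2 fell from 96.5 and 98.3 to 77.2 and 76.5 CPM (-0.34 ± 0.05) and SMAD7 from 11.1 and 11.5 to 8.56 and 8.77 CPM (-0.38 ± 0.10; the call was lost in 7 of 15 alternative settings, and that of ID2 in 0), and ID4, SKIL, HES1 and BAMBI rose.

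Of the 15 genes of the steroid receptor and luminal regulator class, 1 rose at 1 h (TFAP2C, 1.23-fold), against 1.65% of all genes tested. The other 14, among them ESR1, PGR, GATA3 and FOXA1, did not pass. In the cAMP and clock class, PER1, PER2 and RCAN1 rose by 0.82, 0.51 and 0.58 on the log2 scale and 17 of 20 did not pass. The largest log2 fold change of that class, 2.445, was of a member that did not pass. In the heat shock and integrated stress class, PPP1R15A (GADD34) rose 2.48-fold, from 40.4 and 39.8 to 102 and 96.3 CPM, DDIT3 1.58-fold and DNAJB1 1.45-fold. The inducible chaperone genes HSPA1A and HSPA1B, near-identical copies whose reads cannot be divided with certainty, had log2 fold changes of -0.02 and -0.09 and did not pass.

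Of the 416 genes that rose, 99 were in a class, and the following others were picked from the 60 largest rises after their values were seen. PTGER4, the prostaglandin E2 receptor EP4, went from 6.59 and 5.42 to 18.4 and 21.7 CPM (1.74 ± 0.11), and DKK1, a secreted WNT antagonist, from 22.4 and 24.3 to 61.9 and 61.7 CPM (1.40 ± 0.07). The protease gene ADAMTS1 rose from 15.5 and 15.2 to 36.6 and 37.9 CPM, the receptor tyrosine kinase gene EPHA2 from 40.9 and 42.4 to 90.4 and 88.1 CPM and CSRNP1, a nuclear protein gene, from 17.8 and 16.2 to 42.7 and 42.8 CPM. KRT17, a basal keratin and 1 of the 4 basal markers, went from 0.577 and 0.437 to 1.77 and 1.94 CPM (1.87 ± 0.35), while the basal markers as a whole stayed at 8.51 CPM or less. KIF23-AS1 and TPM1-AS, antisense genes, rose as well (2.33 ± 0.39 and 1.16 ± 0.16), but the strand setting of the counting is not stated, so their reads cannot be told from those of the genes opposite.

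The genes that rose most were short. The median length of the gene from start to end in RefSeq was 7.18 kb for the genes with a log2 fold change over 1, with a length for 62 of 73, 17.6 kb for the other genes that rose, 12.9 kb for the genes that fell and 22.3 kb for all genes tested. Under 10 kb were 66.1%, 31.9%, 45.6% and 30.5% of these sets, in the same order. These are descriptions of the sets and were not tested.

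The 134 genes that fell had other features. Of these, 34 (25.4%) carry only a provisional LOC name, against 15.1% of all genes tested and 8 (1.92%) of the 416 that rose. The 12 largest falls among genes with a mean of at least 1 CPM were MYCN, 8 LOC genes, C6orf201, C9orf131 and the bitter taste receptor gene TAS2R4. LOC730234 fell most, from 1.92 and 1.84 to 0.759 and 0.585 CPM (-1.48 ± 0.27), and C9orf131 went from 5.77 and 4.68 to 2.06 and 2.67 CPM (-1.14 ± 0.21). Between 30 and 57 falls were called in place of 134 when EGF replicate 1 or either vehicle library was left out. Outside these 12 and picked after their values were seen, NUAK2, an AMPK-related kinase gene, fell from 12.0 and 10.8 to 4.99 and 6.07 CPM (-1.05 ± 0.13), ZNF296 from 13.6 and 17.1 to 7.841 and 8.002 CPM (-0.96 ± 0.11) and RBM20, a splicing factor gene, from 24.6 and 20.9 to 12.0 and 12.9 CPM (-0.86 ± 0.12).

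**Figure D3:**
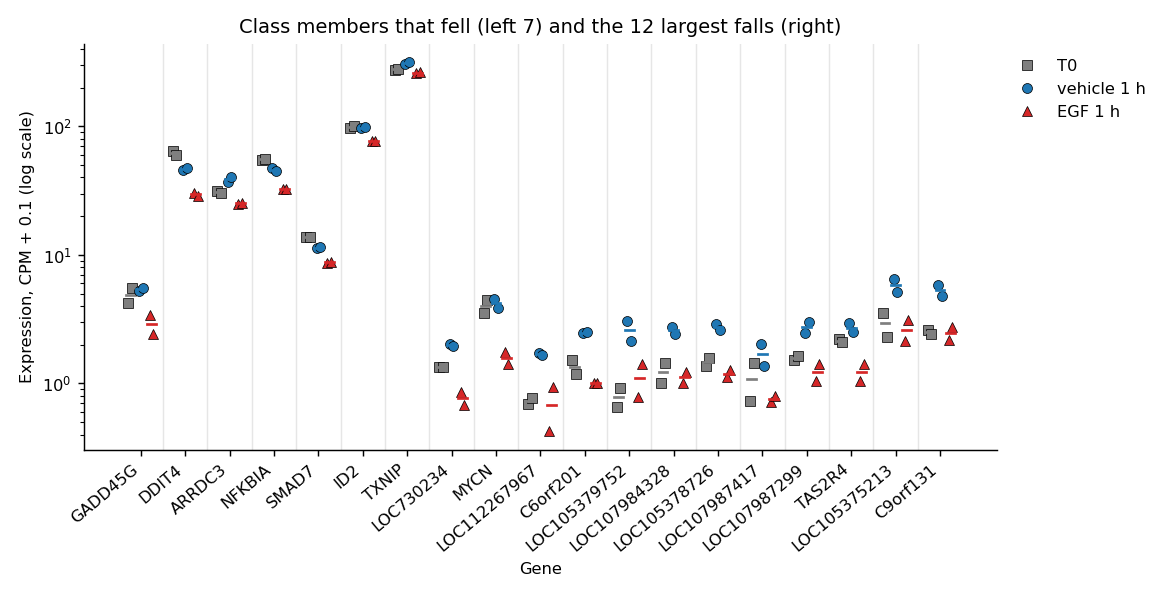
Expression in TMM-normalised CPM plus 0.1 (vertical log axis) of the 7 class members that fell besides MYCN (left) and of the 12 largest falls (right), as 1 point per library for T0 (grey squares), vehicle 1 h (blue circles) and EGF 1 h (red triangles), with short bars at the group means. For DDIT4, NFKBIA and SMAD7 the T0 points lie above the vehicle points, whereas on the right both vehicle points lie above both T0 points for each gene but MYCN and LOC107987417.

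Vehicle alone was not neutral. Vehicle at 1 h differed from T0 in 1662 genes (6.61%; 923 higher, 739 lower), and leaving out any of the 4 libraries gave between 804 and 940. Of the 416 genes that rose with EGF, 167 were also higher with vehicle than at T0 and 21 were lower, against 3.67% and 2.94% of all genes. Both comparisons use the vehicle libraries, so the values are only set side by side. EGR1 was at 12.7 and 15.9 CPM at T0, 82.3 and 85.1 with vehicle and 1114 and 1145 with EGF. FOSB was at 0.556 and 0.923 CPM at T0, 46.1 and 31.9 with vehicle and 322 and 364 with EGF, and GDF15 at 0.477 and 0.513, 14.4 and 14.6, and 57.8 and 59.1 CPM. In these genes vehicle covered much of the distance on the log scale (log2 fold changes of vehicle over T0 of 2.56, 5.75 and 4.87). Other genes did not pass the test between vehicle and T0, among them MYC (48.8 and 52.4 CPM at T0), ZFP36 (28.4 and 30.2 CPM), AREG (3.77 and 3.44 CPM) and MCL1 (518 and 499 CPM).

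Genes that fell with EGF also included many that were higher with vehicle than at T0. Of the 134, vehicle was above T0 in 52 and below it in 7, against 3.67% and 2.94% of all genes tested. EGF was below T0 in 52 and above it in 7 (3.90% and 5.97% of all genes tested were), and 75 were not called against T0. The vehicle and EGF libraries also chose the 134, which favours vehicle above T0 and EGF below it. These values are therefore only set side by side. C9orf131 was at 2.50 and 2.31 CPM at T0, beside 5.77 and 4.68 CPM with vehicle and 2.06 and 2.67 CPM with EGF, so the EGF values lay on either side of the T0 values. MYCN (3.46 and 4.36 CPM at T0), NUAK2 (10.8 and 9.80 CPM) and DDIT4 (63.8 and 60.1 CPM) were lower with EGF than in both the vehicle and the T0 libraries.

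By 12 h the response was smaller for many of these genes. EGF was compared with the vehicle of its own time, and 4030 genes differed at 12 h and 4113 at 24 h. Of the 416 genes that rose at 1 h, 145 were higher at 12 h and 19 lower, against 9.04% and 6.99% of all genes tested. At 24 h 157 were higher and 28 lower, against 9.71% and 6.65%. Without EGF replicate 2 or vehicle replicate 1 of 12 h, 2614 and 2594 genes were called at 12 h, and without vehicle replicate 2 of 24 h 2562 at 24 h. The difference between the effects, which has separate vehicle libraries for each time, was called for 1942 genes (7.72%; 1266 without vehicle 1 h replicate 2 and 1273 without vehicle 12 h replicate 1), and the effect was smaller at 12 h for 211 of the 416 and larger for 19 (3.87% and 3.86% of all genes). The 1 h libraries that chose the 416 also enter this difference. That choice favours smaller effects at 12 h, so the shares of all genes are not a like baseline. EGR2 was at 0.390 and 0.624 CPM with vehicle and 0.135 and 0.345 CPM with EGF at 12 h, and its effect fell by 6.46 ± 0.64 on the log2 scale, the largest such fall by the rule for named genes. CCN2 and FOS followed (differences of -5.74 ± 0.54 and -5.14 ± 0.21). FOS and EGR1 passed the test in the opposite direction at 12 h: FOS was at 4.33 and 3.45 CPM with vehicle and 1.93 and 1.97 CPM with EGF (-1.01), and EGR1 at 34.8 and 34.6 CPM against 15.7 and 16.3 CPM (-1.12, and -1.63 at 24 h).

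A smaller set kept or enlarged its response. AREG had log2 fold changes of 2.27 at 1 h, 1.94 at 12 h and 2.16 at 24 h, PLK2 of 1.01, 1.04 and 1.18 and KLF2 of 1.16, 0.85 and 1.20. The ERK feedback genes DUSP6 and SPRY4 rose further, DUSP6 from 0.69 at 1 h to 1.66 at 12 h and 1.95 at 24 h and SPRY4 from 0.61 to 1.43 and 1.65, and the difference between 12 h and 1 h was 0.97 ± 0.08 for DUSP6 (adjusted p = 1.11e-11, edgeR). The rule for named genes also gave the largest gains by 12 h among genes that did not pass at 1 h, which were AQP3, a water channel gene (1.59 and 1.66 against 1.84 and 1.83 CPM at 1 h, 1.35 and 1.54 against 16.3 and 16.3 CPM at 12 h), and the calpain gene CAPN8 (gain 2.09 ± 0.18). LOC105369161 was the other gene named by the rule (2.23 ± 0.65), and it did not pass at 1 h or 12 h on its own and lost its call in 4 of 15 alternative settings. The rule asked for a mean of at least 1 CPM over the 1 h libraries, so genes below that level at 1 h could not be named, whatever their gain.

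**Figure D4:**
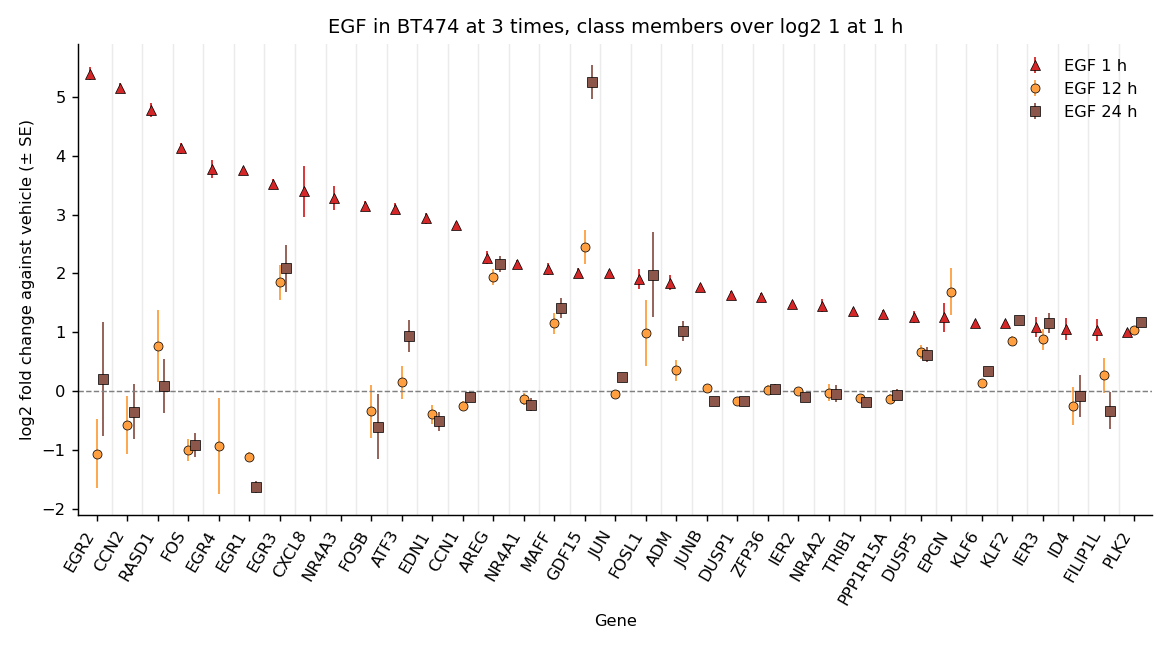
Log2 fold change of EGF against the vehicle of the same time (vertical axis, error bars ± SE) at 1 h (red triangles), 12 h (orange circles) and 24 h (brown squares) for the 35 class members with a log2 fold change over 1 at 1 h (horizontal axis). Values with either group at the detection limit are left out. EGR1 and FOS lie below 0 at 12 h and 24 h, many genes lie near 0, and AREG, GDF15, MAFF, KLF2, PLK2 and others stay above 0.

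HRG, which reaches HER2 through ERBB3, gave a like response at 1 h but a stronger one for the leading genes. With HRG 696 genes differed from vehicle (2.77%; 544 or 2.16% higher, 152 or 0.604% lower; 453 and 450 without vehicle replicate 1 or 2), and 379 of the 416 genes that rose with EGF also rose with HRG, the same vehicle libraries serving both. The direct test between EGF and HRG, which uses no vehicle library, called 35 genes (0.139%), 4 higher (0.0159%) and 31 lower (0.123%) with EGF, and all 31 were among the 416. They included EGR1 to EGR4, FOS, FOSB, JUNB, ATF3, CCN1, CCN2, RASD1, MYC and MCL1. AREG differed most, at 21.5 and 24.1 CPM with EGF and 38.2 and 39.9 CPM with HRG (log2 difference -0.78 ± 0.08, adjusted p = 1.51e-07, edgeR), then PTGER4 (-0.71 ± 0.09) and EGR4 (-0.70 ± 0.10). EGR2 reached 117 and 131 CPM with EGF and 208 and 194 CPM with HRG. ARRDC3, which fell with both, stayed higher with EGF, at 24.6 and 25.4 CPM against 20.5 and 16.3 CPM (0.44 ± 0.08), and LOC644936 and MTRNR2L8, a gene with near-identical mitochondrial and nuclear copies, were also higher with EGF (0.68 ± 0.13 and 0.63 ± 0.10). Each of these 3 lost its call in 4 of 12 alternative settings, and without either HRG replicate 1 gene was called higher with EGF in place of 4. The doses were 50 ng/mL of EGF and 10 ng/mL of HRG and no other dose was given, so ligand and dose cannot be told apart. The count was 15 without EGF replicate 1, and 19 and 23 without HRG replicates 1 and 2, while DESeq2 called 31. A fit without the filter on low counts called 96, and a fit of these 4 libraries alone called 0 in edgeR (1263 at an unadjusted p under 0.05), so that AREG, PTGER4 and EGR4 did not pass there either.

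In BT474R, EGF for 1 h changed 111 of 24287 genes (0.457%; 101 or 0.416% higher, 10 or 0.0412% lower; between 63 and 74 without any of the 4 libraries), and 89 of the 416 genes that rose in BT474 rose there. The common dispersion was 0.003 in BT474R and 0.00121 in BT474, and its part in the counts was not tested. Fits of only the 4 libraries compared called 279 genes in BT474R and 240 in BT474, so the order of the counts turned. The difference between the lines was tested in 1 fit of all 40 libraries and called 34 of 24641 genes (0.138%), 1 with the higher (0.00406%) and 33 with the lower effect (0.134%) in BT474R, of which 32 were among the 416. The BT474 libraries that chose the 416 also enter this difference. That choice favours lower effects in BT474R, so the overlap of 32 is a description only. RASD1 was at 7.34 and 7.97 CPM with vehicle and at 35.1 and 42.1 CPM with EGF in BT474R, so its effect was smaller by 2.48 ± 0.19 on the log2 scale. CCN1 went from 22.7 and 23.4 to 44.36 and 50.05 CPM there, an effect smaller by 1.81 ± 0.12, and FOS from 3.69 and 3.13 to 22.8 and 24.9 CPM, smaller by 1.34 ± 0.28. The FOS difference was lost in 10 of the alternative settings, and 16 genes were called without BT474R vehicle replicate 2, 17 without BT474R EGF replicate 1, 19 without BT474 vehicle replicate 2 and 21 without BT474R vehicle replicate 1. SRF, ZFP36, IER2, JUN, NR4A1 and DUSP5 were others with a smaller effect in BT474R, while EGR1 had log2 fold changes of 3.75 in BT474 and 3.77 in BT474R (difference -0.00 ± 0.19).

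IRF1, a transcription factor of interferon and cytokine signalling, was the gene with a larger effect in BT474R. It was at 7.46 and 7.92 CPM with vehicle and 8.24 and 7.31 CPM with EGF in BT474 (log2 fold change 0.01 ± 0.12) and at 1.97 and 3.55 CPM with vehicle and 14.8 and 11.0 CPM with EGF in BT474R (2.18), a difference of 2.14 ± 0.26 (adjusted p = 3.9e-06, edgeR).

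**Figure D5:**
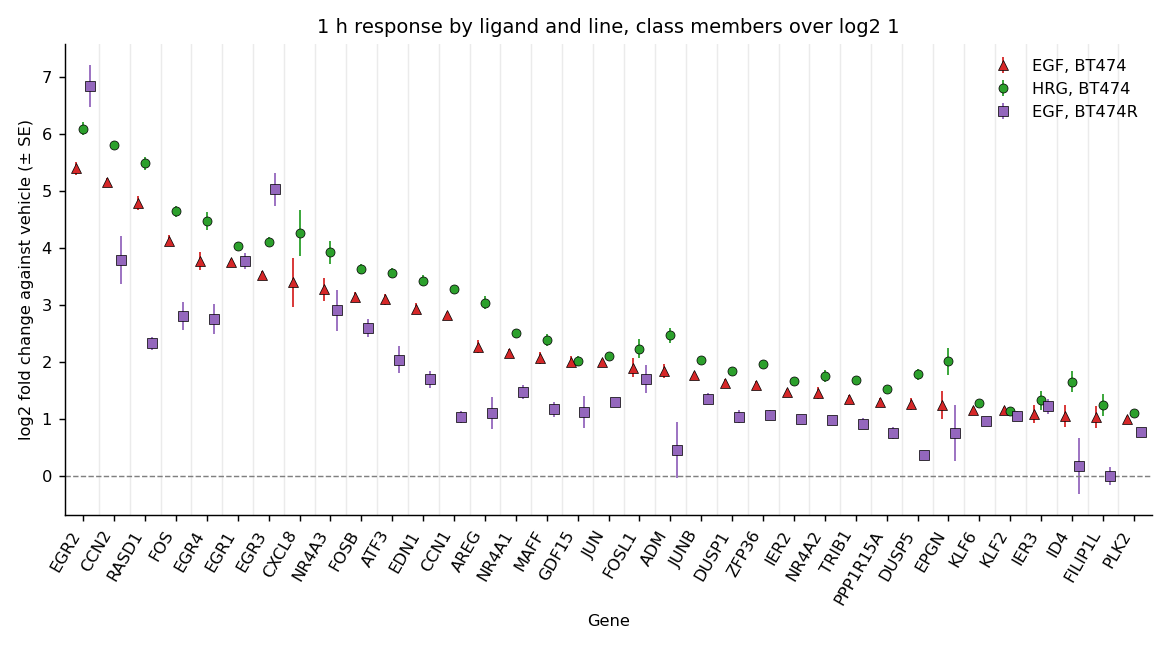
Log2 fold change against vehicle at 1 h (vertical axis, error bars ± SE) for EGF in BT474 (red triangles), HRG in BT474 (green circles) and EGF in BT474R (purple squares) for the 35 class members with a log2 fold change over 1 with EGF in BT474 (horizontal axis). Values with either group at the detection limit are left out. The green points lie at or above the red ones for each gene but KLF2, and the purple points for RASD1, CCN1, EDN1 and FOS lie below the red ones. Those for EGR2 and EGR3 lie above, differences that did not pass the test (adjusted p = 0.816 and 0.0965, edgeR).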

How the data were processed

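RNA was sequenced from 40 libraries, and reads were checked with FastQC and MultiQC, trimmed with Trim Galore 0.6.6 and counted per gene with featureCounts on GRCh38.p13 by the authors, who deposited the table of raw counts. Which annotation release was used, whether counting was stranded and how reads with several matches were handled are not given in the sources used here. Groups were taken from the sample labels. Genes with at least 1 count in 50% of the 20 libraries of a line were tested with edgeR 4.0.16 (R 4.3.3), using TMM factors, 1 quasi-likelihood fit per line, and 1 fit of all 40 libraries for the difference between lines, with p-values adjusted by Benjamini and Hochberg over every gene in the fit and called under 0.05. Depth in the 4 libraries ran from 20429516 to 28192208 counts, and the detection limit of 3 counts covers counting error only. Scripts were tested on simulated data. The members and gene lists were chosen with earlier results of these data known. Genes were named if in a class, or if among the 12 largest changes in each direction, with others named as picked after their values were seen. The 12 were ranked among genes with a mean of at least 1 CPM and no overlap of the groups. For the differences from HRG, BT474R and 12 h, up to 3 genes in each direction were named without the condition on overlap. The mean was always taken over the 4 vehicle and EGF libraries of 1 h in BT474. The table has 5078 entries that are numbered copies of a gene name, and reads of near-identical genes cannot be divided with certainty. DESeq2 1.42.0, other filters and scalings, a replicate block and leaving out each library were alternatives. Promoters came from RefSeq (GRCh38.p14), and no coordinates were carried between builds. Replicate numbers were not used to pair libraries.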

Additional observations from a re-analysis of the deposited data

Results flagged for a closer look

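The EGF effect at 1 h differed between BT474R and BT474 for 34 genes by the test of the difference itself. Among the class genes the effect was lower in BT474R, with log2 differences of -2.48 for RASD1, -1.81 for CCN1, -1.34 for FOS, -1.26 for EDN1, -0.93 for MAFF and -0.91 for DUSP5. Smaller differences of the same sign were -0.73 for JUN, -0.71 for NR4A1, -0.71 for THBS1, -0.64 for GADD45A, -0.63 for RND3, -0.56 for ZFP36L2, -0.54 for SRF, -0.54 for ZFP36, -0.50 for IER2 and -0.31 for TPM4. GADD45A did not pass the test between EGF and vehicle in BT474. The FOS difference was lost in 10 of 16 alternative settings. IRF1 had the larger effect in BT474R (2.14). The lines differ by clone as well as by resistance, and these cannot be told apart with 1 clone.

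The EGF effect differed between 12 h and 1 h for 1942 genes, again by a test of the difference. The log2 differences of the genes named by the rule were -6.46 for EGR2, -5.74 for CCN2 and -5.14 for FOS, and 3.33 for AQP3, 2.23 for LOC105369161 and 2.09 for CAPN8.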

How the results depend on the processing

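No named gene value changed direction in the alternatives scored for single genes, and of 135 such values 94 kept their call in every one. T0 in place of vehicle was not scored for single genes. LOC105379752, a named fall, had log2 fold changes of -1.31 against vehicle and 0.57 against T0, and the latter did not pass. The 550 genes of EGF against vehicle at 1 h became 400 with DESeq2, 395 of them shared, and 515 with libraries thinned to equal depth, an alternative chosen after seeing the data, with 469 shared. They became 240 with only the groups compared and 2482 with T0 in place of vehicle (also chosen after seeing the data), and between 342 and 447 without single libraries. With only the groups compared, EGF against HRG gave 0 genes in edgeR (1263 at an unadjusted p under 0.05, against 31 called by DESeq2 in all libraries), EGF in BT474R 279, the line difference 178, the time difference 3095, and the classes of ERBB ligands, ETS factors, Kruppel-like factors and NF-kB genes 1, 1, 3 and 1. Without a filter on low counts, EGF against HRG gave 96, EGF in BT474R 226 and the line difference 130. A fit of both lines called 1 ETS factor. Leaving out single libraries gave ranges of 15 to 34 for EGF against HRG, 63 to 74 for EGF in BT474R, 16 to 26 for the line difference, 1266 to 1474 for the time difference, 2594 to 2760 for EGF at 12 h, 2562 to 3909 at 24 h, 450 to 539 for HRG at 1 h, 804 to 940 for vehicle against T0, 1 to 2 ERBB ligands and 3 to 4 Kruppel-like factors. The cause was not tested.

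The replicate numbers were not taken as pairs: between groups, the deviations of libraries with the same number correlated at between -0.123 (vehicle and EGF at 1 h) and 0.29 (vehicle and EGF at 24 h) over 10121 genes, and nothing in the labels ties the numbers to a shared batch. With the replicate block, 634 genes were called, among them all 550. With the replicate block within each time point, EGF against HRG gave 83, the line difference 57 and vehicle against T0 1088, and EGF against vehicle 767. The crossed replicate block, chosen after seeing the data, called 664. With 2 libraries a group and 3 counts as the detection limit, small changes of genes near 0.1 CPM were not detectable.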
